A study of Homo sapiens with 12 samples.

Results

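The tripartite motif (TRIM) family was followed through an RNA-Seq comparison of A549 cells, a human lung adenocarcinoma line, with and without expression of the transcription factor GFI1. Members were taken by rule, as protein-coding genes whose symbol is TRIM followed by a number only. The rule found 66 members among the 58735 genes counted, and 47 of them had enough reads to be tested together with 17829 genes in all. Poly(A) RNA libraries covered 4 groups of 3: attached control cells, attached GFI1 cells, floating control cells and floating GFI1 cells. Attached cells are described as untreated. Floating cells were held in suspension for 48 hours on a surface that does not let them adhere. GFI1 was delivered by a lentiviral vector that also encodes GFP, and sorted GFP-positive cells were used for sequencing. Whether the controls carried an empty vector is not stated in the sources used here, so an effect of GFI1 and an effect of transduction cannot be told apart. The replicates are not said to be separate cultures, and p-values measure only the spread between these libraries.

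TRIM proteins are mostly ubiquitin ligases, built from a RING finger, B-box zinc fingers and a coiled coil, followed by a carboxy-terminal domain that sets what each member binds. Many of those with a PRY-SPRY domain act in innate immunity, as restriction factors for incoming viruses or as ligases that tune signalling from RNA and DNA sensors, and a number of these genes are themselves induced by interferon. Other members regulate chromatin, microtubules, muscle or protein quality control, and some have lost the RING finger. Type I interferon switches on its targets through the ISGF3 complex, which binds interferon-stimulated response elements (ISREs) in promoters. GFI1 is a zinc-finger repressor best known from blood cell formation, which binds DNA through a core that contains AATC.

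The members were split into 10 genes known to respond to interferon (TRIM5, TRIM14, TRIM21, TRIM22, TRIM25, TRIM26, TRIM34, TRIM38, TRIM56 and TRIM69), of which 9 were tested, and 56 others, of which 38 were tested. Promoter sequences of RefSeq (GRCh38.p14, 250 bases before and 50 after an annotated start) were used for 52 of the 66 members. The 14 without an entry were TRIM4, TRIM8, TRIM11, TRIM13, TRIM22, TRIM24, TRIM27, TRIM28, TRIM29, TRIM35, TRIM43, TRIM45, TRIM55 and TRIM60. An ISRE was looked for on both strands as a pair of GAAA blocks with any 2 bases between them, which reads as a pair of TTTC blocks on the other strand. It was present in 6 of the 9 interferon-responsive members with an entry, in 3 of the 43 other members with one (TRIM2, TRIM16 and TRIM44), and in 3.57% of all 35116 promoters. The 6 matching stretches are shown because the same short element occurs in members that moved in opposite directions. Each is printed 5′ to 3′ on the strand of its gene, with the letters of the match in capitals.
TRIM5, chr11:5685077-5685116, minus strand: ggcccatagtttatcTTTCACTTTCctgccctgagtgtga
TRIM14, chr9:98119224-98119263, minus strand: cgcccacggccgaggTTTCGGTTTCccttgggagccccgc
TRIM21, chr11:4393655-4393700, minus strand: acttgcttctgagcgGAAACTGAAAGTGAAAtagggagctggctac
TRIM34, chr11:5624896-5624935, plus strand: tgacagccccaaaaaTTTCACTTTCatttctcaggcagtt
TRIM26, chr6:30213570-30213615, minus strand: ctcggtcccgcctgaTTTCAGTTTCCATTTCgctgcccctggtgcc
TRIM69, chr15:44736451-44736490, plus strand: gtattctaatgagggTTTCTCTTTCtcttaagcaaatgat

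TRIM21 and TRIM26 each held 2 overlapping matches, and the other 4 genes held 1. The RefSeq start lay 6 bases from the 5′ end of the deposited gene for TRIM21, 10 bases for TRIM14 and 21 bases for TRIM26. It lay 253545 bases inside the deposited gene for TRIM5, 7540 bases inside for TRIM69 and 5237 bases inside for TRIM34, so those promoters belong to internal starts of the counted gene. No ISRE letters were found in these windows of TRIM25, TRIM38 and TRIM56, and TRIM22 has no entry.

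The GFI1 core, written as AATCNNNGC and searched on both strands, was found in 2 of the 9 interferon-responsive members (TRIM26 and TRIM34), 11 of the 43 others and 11.02% of all promoters. The promoter of TRIM6 held 2 matches and that of TRIM2 held 1. They are shown because these were the members with the lowest GFI1-to-control ratios. No match was found in the promoters of TRIM67, TRIM9, TRIM47, TRIM36, TRIM69, TRIM7 and TRIM32, which also fell in both states. The whole promoter of TRIM21, the interferon-responsive member with the lowest adjusted p, is given beside that of TRIM6, with ISRE matches in capitals in TRIM21 and GFI1 core matches in capitals in TRIM6 and TRIM2.
TRIM21, chr11:4393653-4393952, minus strand: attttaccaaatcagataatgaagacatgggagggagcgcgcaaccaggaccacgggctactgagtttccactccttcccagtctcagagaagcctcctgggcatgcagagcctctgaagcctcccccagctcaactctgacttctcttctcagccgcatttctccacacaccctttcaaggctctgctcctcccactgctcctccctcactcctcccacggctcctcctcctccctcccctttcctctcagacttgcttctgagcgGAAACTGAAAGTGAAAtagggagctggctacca
TRIM6, chr11:5596387-5596686, plus strand: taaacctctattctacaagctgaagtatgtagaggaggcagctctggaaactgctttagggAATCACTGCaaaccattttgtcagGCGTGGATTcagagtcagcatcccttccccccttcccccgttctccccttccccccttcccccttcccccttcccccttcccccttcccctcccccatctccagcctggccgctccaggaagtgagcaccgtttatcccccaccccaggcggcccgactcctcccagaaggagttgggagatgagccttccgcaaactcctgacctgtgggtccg
TRIM2, chr4:153152079-153152117, plus strand: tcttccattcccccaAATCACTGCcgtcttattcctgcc

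Library totals ran from 17014188 to 20748677 counts. GFI1 itself had 4 to 12 counts in the 6 control libraries and 5154 to 12796 in the 6 GFI1 libraries. Summed epithelial markers, with KRT8 the highest, were at 10386 to 10986 CPM (counts per 1000000, on a library size scaled by TMM) in attached controls, 4222 to 4339 in attached GFI1 cells, 6529 to 6938 in floating controls and 3039 to 3411 in floating GFI1 cells. The leukocyte markers PTPRC, CD3E and LYZ had at most 3 counts in every library, while CD14 reached 13.8 CPM, and the 6 markers of that list summed to 5.27 to 8.21 CPM in attached controls, 4.73 to 5.71 in attached GFI1 cells, 11.1 to 14.7 in floating controls and 6.86 to 7.61 in floating GFI1 cells. The 3 endothelial markers summed to 0.109 to 0.602 CPM in control libraries and 3.55 to 5.52 CPM in GFI1 libraries, with CDH5 the highest. Of 3 fibroblast markers, DCN and LUM had at most 3 counts in every library and PDGFRA reached 1.59 CPM, with sums of 0.172 to 0.476 CPM in attached controls, 0.250 to 0.563 in attached GFI1 cells, 1.13 to 1.59 in floating controls and 0.249 to 0.992 in floating GFI1 cells. The part of these differences in the results was not tested. Replicates 2 and 3 of the floating GFI1 group differed most from each other, by a chi-square of 11.8 per gene against 2.01 to 4.99 in the other replicate pairs.

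Per kilobase of gene length, TRIM28, the corepressor that KRAB zinc-finger proteins recruit to silence transposons, stood far above the rest, at a mean of 140 CPM per kilobase over the 4 groups. TRIM25, TRIM16 and TRIM21 followed at 16.2, 15.97 and 15.6 CPM per kilobase. The order of these 3 depended on the group. TRIM21 was at 6.83 CPM per kilobase in attached controls and 23.4 in attached GFI1 cells, where it ranked above TRIM25 at 21.6 and TRIM16 at 13.7. Among interferon-responsive members in attached controls, levels ran from 13.7 CPM per kilobase for TRIM25 and 12.1 for TRIM26 down to 0.784 for TRIM22. At the low end of the tested members, TRIM2 and TRIM67 averaged 0.164 and 0.0940 CPM per kilobase.

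The first question was how the family differed between GFI1 and control cells. In attached cells 20 members rose and 16 fell at an adjusted p of 0.05 or less, 36 of the 47 tested, beside 62.3% of all genes tested (29.5% higher, 32.8% lower). In floating cells 21 rose and 17 fell, 38 of 47, beside 60.4% (29.3% higher, 31.1% lower). GFI1 cells thus differed from controls at most genes measured, and a call alone says little about a member. A change of at least 2-fold was found for 11 members in each state, 5 higher and 6 lower, beside 18.2% and 17.3% of all genes. The median log2 fold change over the tested members was 0.12 in attached and 0.094 in floating cells, against -0.0066 and 0.011 over all genes tested. With scaling by library size alone, which raises the median of all genes to 0.14 in both states, the floating split became 25 higher and 13 lower (61.4% of all calls higher, 48.5% with the main scaling).

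The 9 interferon-responsive members mostly rose, and the 38 others were split between higher and lower, a difference between lists that was not tested. The lists were chosen with earlier results of these data known. In attached cells 7 of the 9 rose and 2 fell, with a median log2 fold change of 0.72, while 13 of the 38 others rose and 14 fell, with a median of 0.00381. In floating cells the interferon-responsive members again gave 7 higher and 2 lower, with a median of 0.75, and the others 14 higher and 15 lower, with a median of 0.036. Over all genes tested, 29.5% were called higher and 32.8% lower in attached cells, and 29.3% and 31.1% in floating cells. The GFI1 and control libraries did not overlap for any of the 9 genes in either state, beside 67.0% of all genes without overlap in attached cells and 64.4% in floating cells. All 9 calls held in both states under every alternative of scaling, filtering, test and left-out library that was run.

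**Figure D1:**
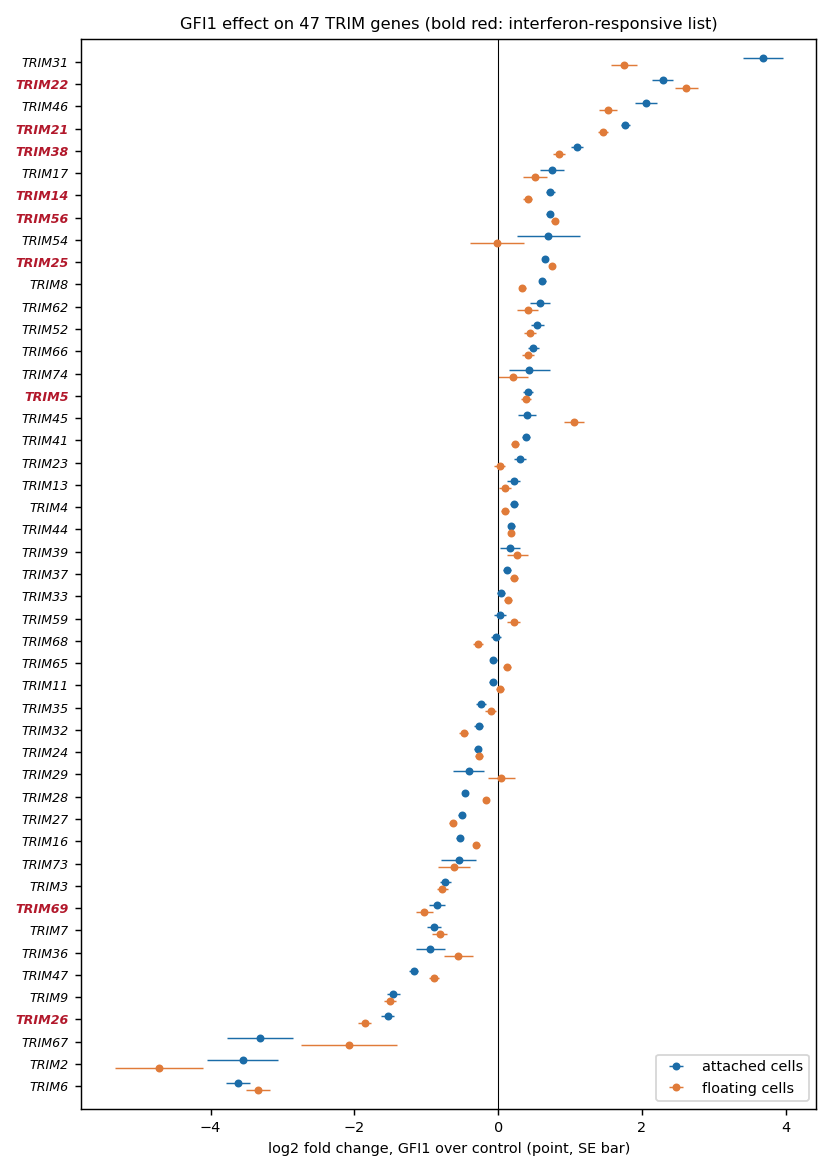
GFI1 effects on the 47 tested TRIM genes, as log2 fold changes of GFI1 over control cells on the horizontal axis, with bars of 1 SE, ordered by the effect in attached cells. Names in bold red are the 9 interferon-responsive genes, of which 7 lie to the right of 0 in both states and TRIM26 and TRIM69 lie to the left.

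TRIM21 is the cytosolic antibody receptor that marks antibody-coated virus for destruction. It stood at 12.6, 13.9 and 13.1 CPM in attached controls and 45.01, 47.2 and 42.96 in attached GFI1 cells, and at 16.4, 16.4 and 17.1 in floating controls and 44.6, 46.6 and 45.9 in floating GFI1 cells. Every GFI1 library was above every control library. The log2 fold change was 1.77 ± 0.07 (SE) in attached cells (edgeR quasi-likelihood test, adjusted p = 8.19e-18) and 1.46 ± 0.06 in floating cells (edgeR, adjusted p = 2.63e-16).

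TRIM22, a restriction factor for several RNA viruses and one of the strongest interferon targets of the family, was the most changed of the 9 genes on the log2 scale. It was at 6.01, 4.07 and 4.07 CPM in attached controls and 23.2, 23.2 and 22.7 in attached GFI1 cells. In suspension it was at 4.50, 3.01 and 3.00 CPM in controls and 20.02, 19.1 and 25.2 in GFI1 cells, so the control libraries were low and the GFI1 libraries high in both states. The log2 fold changes were 2.29 ± 0.15 and 2.62 ± 0.16 (edgeR, adjusted p = 1.65e-13 and 4.76e-14). TRIM22 lies wholly inside the span of TRIM5 on the opposite strand, over 47401 bases, and the strand setting of the counting is not stated, so reads of these 2 genes may not be fully separated.

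TRIM38, which dampens signalling from Toll-like and TNF receptors, rose from 15.8, 13.5 and 12.5 CPM to 27.9, 32.3 and 28.99 in attached cells and from 16.2, 17.7 and 17.1 to 32.2, 29.5 and 29.7 in floating cells. The log2 fold changes were 1.10 ± 0.08 and 0.84 ± 0.08 (edgeR, adjusted p = 1.88e-11 and 1.97e-09). The other 4 genes that rose did so by less, each with its 3 GFI1 libraries above the 3 controls. TRIM25, a ligase that promotes antiviral signalling by the sensor RIG-I, went from 125, 136 and 129 to 198, 211 and 206 CPM in attached cells, a log2 fold change of 0.66 ± 0.04, and changed by 0.75 ± 0.04 in floating cells. TRIM56, which restricts RNA viruses and acts on the STING pathway, went from 113, 116 and 116 to 185, 190.4 and 191 CPM, a log2 fold change of 0.72 ± 0.05, and changed by 0.79 ± 0.05 in floating cells.

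TRIM14, a member without a RING finger that works as an adaptor at the mitochondrial protein MAVS, went from 39.5, 36.8 and 42.4 to 64.4, 68.1 and 63.4 CPM in attached cells, a log2 fold change of 0.72 ± 0.06. Its change in floating cells was smaller, at 0.41 ± 0.06. TRIM5, which recognises retroviral capsids, had the smallest rise of the 7, from 22.5, 23.3 and 23.5 to 31.4, 31.4 and 29.6 CPM, with log2 fold changes of 0.42 ± 0.06 in attached and 0.39 ± 0.07 in floating cells. The edgeR adjusted p of these 4 genes was at most 1.37e-05 in either state.

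**Figure D2:**
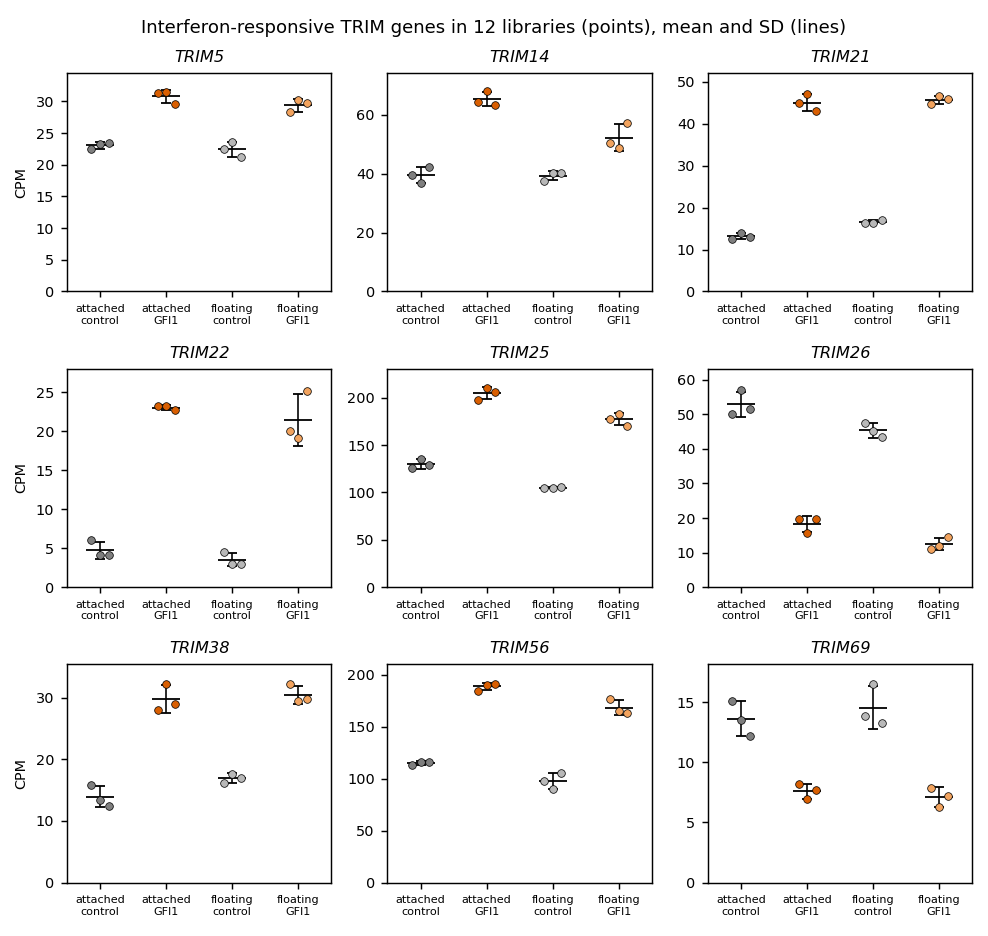
CPM (vertical axis, from 0) of the 9 tested interferon-responsive TRIM genes in each of the 12 libraries, with 3 points per group, a long bar for the mean and whiskers for the SD. The orange GFI1 points lie above the grey control points in 7 panels and below them for TRIM26 and TRIM69.

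Both members of the list that fell carried ISRE letters in their RefSeq promoter, as did TRIM5, TRIM14 and TRIM21, which rose. TRIM26, a ligase reported to act on IRF3 and on MAVS signalling, was at 50.1, 57.1 and 51.5 CPM in attached controls and 19.7, 15.6 and 19.7 in attached GFI1 cells. In suspension it was at 47.7, 45.1 and 43.5 and 11.1, 11.7 and 14.6 CPM. Its lowest control library was above its highest GFI1 library in both states. The log2 fold changes were -1.54 ± 0.09 (edgeR, adjusted p = 3.77e-14) and -1.86 ± 0.09 (edgeR, adjusted p = 3.52e-15).

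TRIM69, which associates with microtubules and restricts vesicular stomatitis virus, went from 15.1, 13.5 and 12.2 CPM to 8.17, 6.92 and 7.66 in attached cells and from 13.9, 16.6 and 13.3 to 7.89, 6.29 and 7.21 in floating cells. The log2 fold changes were -0.85 ± 0.12 and -1.03 ± 0.12 (edgeR, adjusted p = 5.48e-07 and 2.91e-08). TRIM34, the tenth gene of the list and a close relative of TRIM5, had 0 to 5 counts in any library and was not tested. Over members called in the same direction in both states, ISRE letters stood in 4 of the 14 that rose and have a promoter entry and in 4 of the 12 that fell and have one. GFI1 core letters stood in 2 of the 14 (TRIM44 and TRIM62) and 5 of the 12 (TRIM2, TRIM3, TRIM6, TRIM16 and TRIM26). Over all promoters, 3.57% held ISRE letters and 11.02% held GFI1 core letters. These counts are small, and a difference in letters between members that rose and fell was not tested.

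The interferon response genes outside the family had larger medians than the TRIM genes. All 43 tested of a list of 44 rose in attached GFI1 cells, beside 29.5% of all genes, with a median log2 fold change of 2.49. In floating GFI1 cells 42 of 43 rose, beside 29.3%, with a median of 2.19. OAS1 was the exception in floating cells, at 0.0020 ± 0.09 (edgeR, adjusted p = 0.988). DTX3L, a ubiquitin ligase of the PARP9 complex, rose by 2.10 ± 0.05 on the log2 scale in the attached state. UBA7, the activating enzyme for the ubiquitin-like protein ISG15, rose by 5.21 ± 0.19 in floating cells. The list and the TRIM list were both drawn from general knowledge of the interferon response, but with earlier results of these data known. The numbers of listed genes that rose are therefore no independent test of an interferon response. The size difference between the 2 lists was not tested. The list of 44 does not hold every interferon target. It leaves out GBP1, which the study reports as downregulated by GFI1 in A549 cells.

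Of 4 TRIM proteins whose gene symbols the rule does not take, PML, the organiser of nuclear bodies, rose by 0.995 ± 0.07 and 0.69 ± 0.07 on the log2 scale, and MID1, a microtubule-bound ligase, fell by 1.68 in attached (SE 0.05) and by 2.18 in floating (SE 0.05) cells. MID2 was not called in either state, at -0.05 ± 0.11 and 0.23 ± 0.11. MEFV had 0 to 4 counts and was not tested.

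Among the 38 members outside the interferon-responsive list, the highest GFI1-to-control ratio belonged to TRIM31, an epithelial ligase that promotes MAVS aggregation and that some lists count as interferon-responsive. It was at 0.536, 0.380 and 0.631 CPM in attached controls (7 to 11 counts) and 5.86, 7.66 and 6.46 in attached GFI1 cells (104 to 166 counts), a log2 fold change of 3.69 ± 0.28 (edgeR, adjusted p = 1.47e-13). In suspension the controls were higher, at 2.07, 2.23 and 1.76 CPM, the GFI1 cells were at 7.45, 6.51 and 6.47, and the log2 fold change was 1.75 ± 0.18 (edgeR, adjusted p = 2.04e-09). GFI1 libraries were at a similar level in both states, and the control libraries were not.

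The COS-box members, which bind microtubules or muscle sarcomeres, did not move together. TRIM46, which bundles microtubules at the axon initial segment, rose from 3.81, 4.62 and 2.81 CPM to 15.8, 14.95 and 16.3 in attached cells and from 7.47, 6.98 and 7.25 to 23.2, 17.1 and 22.2 in floating cells, with log2 fold changes of 2.06 ± 0.15 and 1.53 ± 0.13 (edgeR, adjusted p = 1.9e-12 and 5.17e-11). TRIM9, a ligase of axon branching, fell from 22.7, 23.1 and 22.3 CPM to 7.66, 8.26 and 8.81 and from 26.3, 29.7 and 26.6 to 10.3, 9.15 and 9.70, with log2 fold changes of -1.46 ± 0.09 and -1.50 ± 0.08 (edgeR, adjusted p = 1.16e-13 and 3.43e-14). Of the 5 COS-box genes tested, 1 rose and 3 fell in each state, TRIM54 being the member not called, beside 62.3% of all genes called in attached and 60.4% in floating cells.

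TRIM67, the closest relative of TRIM9, and TRIM36 were the other COS-box genes that fell. TRIM67 was scarce, at 2.26, 2.82 and 2.64 CPM in attached controls and 0.451, 0.185 and 0.150 in attached GFI1 cells (3 to 8 counts), and its log2 fold change of -3.31 ± 0.46 (edgeR, adjusted p = 6.01e-08) rests on few reads. In floating cells it was at 0.301 to 0.850 CPM in controls and 0.0497 to 0.221 in GFI1 cells, a change of -2.08 ± 0.67 (edgeR, adjusted p = 0.00388). TRIM36 changed by -0.94 ± 0.20 in attached cells (edgeR, adjusted p = 0.000221) and by -0.55 ± 0.20 in floating cells, where the call (edgeR, adjusted p = 0.0199) was lost without floating GFI1 replicate 1, floating control replicate 1 or floating control replicate 3, at adjusted p = 0.0529 to 0.0865, and also with DESeq2 (0.0508), scaling by library size alone (0.0691) and no low-count filter (0.0595).

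The lowest GFI1-to-control ratios were those of TRIM6 and TRIM2. TRIM6, which builds free ubiquitin chains that activate the kinase IKKε in the interferon response, was at 27.7, 25.1 and 22.3 CPM in attached controls and 1.35, 2.22 and 2.45 in attached GFI1 cells, and at 21.2, 23.3 and 21.2 and 1.60, 2.37 and 2.49 in suspension. No GFI1 library came near a control library. The log2 fold changes were -3.62 ± 0.17 (edgeR, adjusted p = 3.47e-17) and -3.34 ± 0.17 (edgeR, adjusted p = 2.55e-16). TRIM6 shares 16234 bases with the readthrough gene TRIM6-TRIM34, which had 0 counts in every library, and reads that fit both could have been left out of its count.

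TRIM2, a ligase of neurofilaments, belongs to the NHL-domain members, all 3 of whose tested genes fell in both states, beside 26.7% of all genes. TRIM2 had 33 to 66 counts in the 6 control libraries and 0 to 6 in the 6 GFI1 libraries, with log2 fold changes of -3.55 ± 0.49 in attached and -4.72 ± 0.61 in floating cells (edgeR, adjusted p = 2.05e-08 and 3.56e-10). TRIM3, its brain-enriched relative, went from 25.01, 24.5 and 23.01 CPM to 14.7, 14.03 and 14.8 in attached cells, a log2 fold change of -0.74 ± 0.08, and changed by -0.78 ± 0.08 in floating cells. TRIM32, mutated in a limb-girdle muscular dystrophy, changed by -0.27 ± 0.06 and -0.48 ± 0.06. With scaling by library size alone the attached call of TRIM32 was lost (adjusted p = 0.0865). TRIM71, the stem-cell member of this group, had at most 1 count in any library.

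Among members whose mean log2 CPM was 1 or more, TRIM47 was also among the 5 lowest in both states, and it went from 42.4, 42.1 and 44.3 CPM to 20.4, 18.4 and 18.4 in attached cells and from 41.4, 38.3 and 41.2 to 21.01, 22.6 and 21.6 in floating cells, with log2 fold changes of -1.17 ± 0.06 and -0.89 ± 0.06 (edgeR, adjusted p = 2.17e-14 and 5.15e-12). TRIM7, which binds glycogenin, changed by -0.89 ± 0.10 and -0.82 ± 0.10, and TRIM27, a ligase of endosomal actin regulation, by -0.51 ± 0.05 and -0.63 ± 0.05. TRIM16, which lacks a RING finger and acts at damaged endosomes, changed by -0.54 ± 0.05 and -0.30 ± 0.05. All 4 fell in both states. Other rises in both states were those of TRIM8, TRIM17, TRIM41, TRIM44, TRIM45, TRIM52 and TRIM62, from 0.18 to 1.06 on the log2 scale. Of these, TRIM45 lost its attached call without attached control replicate 3 (adjusted p = 0.0657), TRIM17 its floating call without floating control replicate 3 (adjusted p = 0.0502) and TRIM62 its floating call without floating control replicate 1 (adjusted p = 0.0833).

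The TIF1 members, which read histone marks and repress or coactivate transcription, were called in 3 of 4 cases in attached cells and in 4 of 4 in floating cells, beside 62.3% and 60.4% of all genes, with median log2 fold changes of -0.12 and -0.020. TRIM28 fell from 762, 758 and 730.3 CPM to 549.9, 529 and 562 in attached cells, a log2 fold change of -0.46 ± 0.04 (edgeR, adjusted p = 6.81e-10). In floating cells it went from 533, 494 and 503 to 439, 461 and 456 CPM, a change of -0.17 ± 0.04 (edgeR, adjusted p = 0.000979) that was no longer called with scaling by library size alone (-0.04, adjusted p = 0.364). TRIM24, a reader of histone H3 and coregulator of nuclear receptors, fell by 0.29 and 0.26. TRIM66, the HP1-binding member, rose by 0.49 and 0.42.

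TRIM33, a ligase that acts on SMAD4, was at 0.04 ± 0.06 in attached cells (edgeR, adjusted p = 0.613) and at 0.13 ± 0.06 in floating cells (edgeR, adjusted p = 0.0473), and the floating call was lost without any of 6 libraries (adjusted p = 0.0503 to 0.209). Those libraries were attached GFI1 replicate 3, attached control replicate 1, floating GFI1 replicates 2 and 3 and floating control replicates 1 and 2. The call was also lost with DESeq2 (0.0878), RLE size factors (0.0543), no low-count filter (0.0898) and a replicate block (0.0502), all adjusted p. TRIM66 overlaps by 284 bases with RPL27A, a ribosomal protein gene of 9304 to 13721 counts on the other strand, so part of its count is uncertain. The same holds for other members that overlap expressed genes. Among them, TRIM59 shares 2518 bases with SMC4 (2870 to 5137 counts) and TRIM14 13801 bases with NANS (413 to 977 counts), both on the other strand. TRIM73 shares 675 bases with NSUN5P1 (408 to 734 counts) on the same strand.

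Several members sit beside one another in the genome, and some neighbours went in opposite directions while others moved together (GRCh38, coordinates as deposited). Over all genes tested, 22.9% were higher and 26.7% lower in both states, and the directions of neighbours were not tested. On chromosome 11, TRIM6 (chr11:5596109-5612958) fell, TRIM34 (chr11:5619764-5644398) was not tested, and TRIM5 (chr11:5663557-5938619) and TRIM22 (chr11:5689689-5737089) rose. TRIM21 (chr11:4384897-4393696), which rose, and TRIM3 (chr11:6448613-6474459), which fell, lie farther off on either side of that cluster, with TRIM68 between TRIM21 and TRIM6. On chromosome 6, TRIM31 (chr6:30102897-30113106) rose and TRIM26 (chr6:30184455-30213427) fell. TRIM40, TRIM10 and TRIM15 lie between them and had at most 15 counts in any library. TRIM39 (chr6:30326479-30343729), 113 kb further on, was not called, at 0.17 ± 0.14 and 0.27 ± 0.14. It was called in attached cells without attached control replicate 1 (edgeR, adjusted p = 0.0411). In floating cells it was called with scaling by library size alone (edgeR, adjusted p = 0.0170). TRIM39 shares 14823 bases with the readthrough gene TRIM39-RPP21, which had 0 to 1 counts, so its count is uncertain.

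TRIM47 and TRIM65, 1.76 kb apart on chromosome 17, also differed. TRIM47 fell in both states, while TRIM65, a ligase of the RNA sensor MDA5, was at -0.07 ± 0.05 in attached cells (edgeR, adjusted p = 0.279) and 0.13 ± 0.05 in floating cells (edgeR, adjusted p = 0.0453). That floating call was lost without any of 6 libraries (adjusted p = 0.0530 to 0.207), namely attached control replicates 2 and 3, floating GFI1 replicates 1 and 2 and floating control replicates 1 and 2. It was lost as well with DESeq2 (0.0933), RLE size factors (0.0516), no low-count filter (0.127), a fit of only the groups compared (0.0507) and a replicate block (0.0536), all adjusted p. On chromosome 5, TRIM7 fell while TRIM41 and TRIM52 rose, with gaps of 17.2 and 18.6 kb between them. TRIM17 rose in both states, and TRIM11, 1.1 kb away on chromosome 1, was not called.

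**Figure D3:**
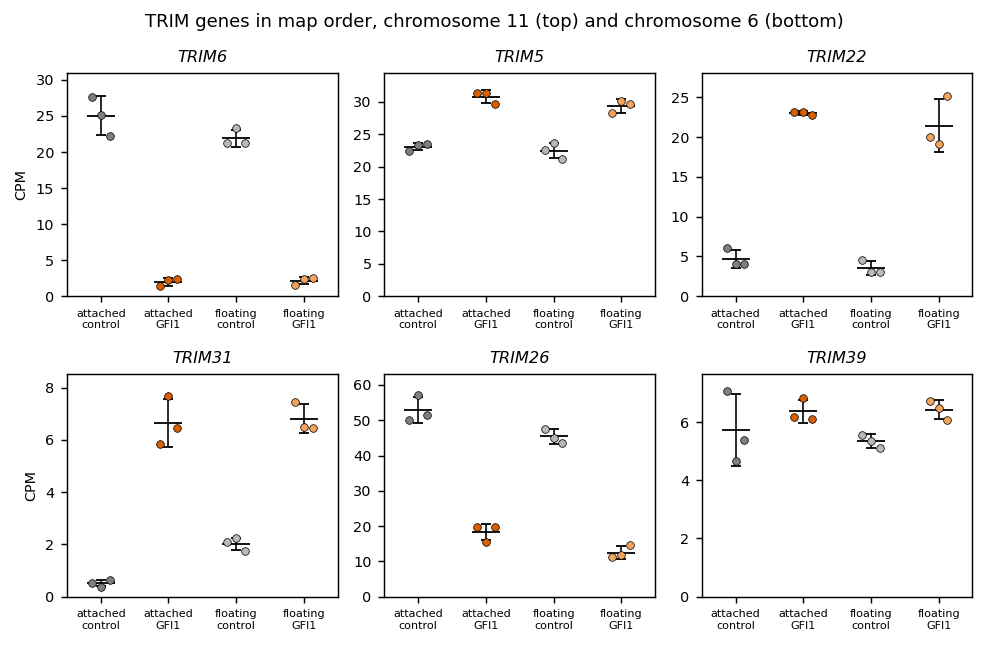
CPM (vertical axis, from 0) of 3 neighbouring TRIM genes on chromosome 11 (top) and 3 on chromosome 6 (bottom), left to right in map order, in each of the 12 libraries, with the mean (long bar) and SD (whiskers) of each group. TRIM6 and TRIM26 are lower, and TRIM5, TRIM22 and TRIM31 higher, in every GFI1 library than in every control library of the same state, and TRIM39 overlaps in attached cells.

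The GFI1 effects in attached and floating cells, which share no library, went in the same direction for every member called in both. Of the 47 members, 32 were called in both states, all 32 in the same direction (17 higher and 15 lower, beside 22.9% and 26.7% of all genes), and Pearson's r between the 2 log2 fold changes was 0.938 over 47 members, which are no replicates of one another. TRIM4, TRIM13, TRIM23 and TRIM35 were called in attached cells only by this threshold, and TRIM33, TRIM37, TRIM59, TRIM65, TRIM68 and TRIM73 in floating cells only. None of these 10 passed the test of the difference between states. TRIM11, TRIM29, TRIM39, TRIM54 and TRIM74 were called in neither. Of these weaker calls, TRIM13 in attached cells was lost without any of 4 libraries (attached GFI1 replicates 2 and 3 and attached control replicates 1 and 3, adjusted p = 0.0641 to 0.182), TRIM59 in floating cells without any of 4 (floating GFI1 replicates 1 and 2 and floating control replicates 1 and 2, adjusted p = 0.0549 to 0.140), and TRIM73 in floating cells without floating GFI1 replicate 1 or floating control replicate 2 (adjusted p = 0.0645 to 0.0994). DESeq2 also lost the calls of TRIM13 (0.0593) and TRIM59 (0.0592), and no low-count filter that of TRIM13 (0.122). Scaling by library size alone lost those of TRIM35 (0.263), TRIM68 (0.0529) and TRIM73 (0.0548), all adjusted p.

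The next question was what 48 hours of suspension did to the family, first in control cells. There 13 members were higher and 11 lower in floating than in attached cells, 24 of 47, beside 40.1% of all genes tested (19.6% higher, 20.5% lower). The changes were small, with 3 of the 24 reaching 2-fold, beside 5.10% of all genes, and the floating and attached libraries did not overlap for 26 of the 47, beside 49.9%. The interferon-responsive members showed no common direction, with 2 higher, 3 lower, 4 not called and a median of -0.04, against 11 higher, 8 lower and a median of 0.094 for the other members.

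TRIM28 fell furthest of the well-measured members in suspension, from 762, 758 and 730.3 CPM to 533, 494 and 503, a log2 fold change of -0.56 ± 0.04 (edgeR, adjusted p = 7.43e-11). TRIM31 rose from 0.536, 0.380 and 0.631 to 2.07, 2.23 and 1.76 CPM, by 1.96 ± 0.30 (edgeR, adjusted p = 2.1e-06), and TRIM46 by 0.94 ± 0.16 (edgeR, adjusted p = 2.72e-05). These 2 members thus rose both with GFI1 and with suspension. TRIM67 dropped from 2.26 to 2.82 to 0.301 to 0.850 CPM, by -2.23 ± 0.38 (edgeR, adjusted p = 1.26e-05), on 5 to 15 counts in floating libraries.

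TRIM23, which carries an ARF GTPase domain, rose by 0.46 ± 0.08, and TRIM13, anchored in the endoplasmic reticulum, by 0.43 ± 0.09. TRIM59, the other membrane-anchored member, changed by -0.34 ± 0.09, TRIM25 by -0.31 ± 0.04 and TRIM65 by -0.25 ± 0.05, all 3 lower. TRIM45 changed by -0.45 ± 0.15 and lost its call without attached control replicate 2, floating control replicate 1 or floating control replicate 2 (edgeR, adjusted p = 0.0652 to 0.0759). TRIM73 and TRIM74 are near-identical copies, so their counts are uncertain. TRIM74 rose by 1.55 ± 0.27 in control and 1.32 ± 0.23 in GFI1 cells, and TRIM73 by 0.61 ± 0.22 in control cells, a call lost without attached control replicate 2 or floating control replicates 1 or 2 (edgeR, adjusted p = 0.0539 to 0.121).

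Of the interferon-responsive members in control cells, TRIM21 rose with suspension by 0.33 ± 0.07 and TRIM38 by 0.29 ± 0.09, while TRIM25 fell and TRIM56 and TRIM26 changed by -0.23 ± 0.05 and -0.22 ± 0.08, both lower. The call of TRIM38 was lost without attached control replicates 2 or 3 or floating control replicate 2 (edgeR, adjusted p = 0.0513 to 0.0940), and that of TRIM26 without attached control replicate 2 or floating control replicates 2 or 3 (edgeR, adjusted p = 0.0680 to 0.161). TRIM22 was at -0.42 ± 0.19 (edgeR, adjusted p = 0.073), TRIM5 at -0.04 ± 0.07, TRIM14 at -0.01 ± 0.07 and TRIM69 at 0.10 ± 0.11, none of them called. Of the 43 interferon response genes outside the family, 14 rose and 5 fell, beside 19.6% and 20.5% of all genes, with a median of 0.18.

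The same comparison was then made in GFI1 cells. Of 47 members, 7 were higher and 5 lower in floating cells, beside 31.3% of all genes tested (15% higher, 16.3% lower), which is 12 of 47 called. TRIM74 alone reached 2-fold, beside 2.80% of all genes, and 19 members did not overlap, beside 41.4%. All 4 interferon-responsive members called were lower, and their median over 9 was -0.10. TRIM26 went from 19.7, 15.6 and 19.7 to 11.1, 11.7 and 14.6 CPM, by -0.54 ± 0.10 (edgeR, adjusted p = 0.000146). TRIM14 changed by -0.32 ± 0.06, TRIM25 by -0.21 ± 0.04 and TRIM56 by -0.17 ± 0.05. Outside the family, 17 of 43 interferon response genes fell and 1 rose, with a median of -0.19.

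Among the other members in GFI1 cells, 7 rose with suspension and TRIM28 fell, by -0.27 ± 0.04 (edgeR, adjusted p = 1.32e-05). TRIM29, an epithelial member without a RING finger, rose from 1.52, 1.43 and 1.30 to 2.65, 2.92 and 2.49 CPM, by 0.92 ± 0.21 (edgeR, adjusted p = 0.00106), and TRIM13 by 0.30 ± 0.09. TRIM46 rose by 0.41 ± 0.11, a call lost without floating GFI1 replicate 1 (edgeR, adjusted p = 0.0522). The call of TRIM13 was lost without floating GFI1 replicate 2 (edgeR, adjusted p = 0.0695). TRIM47 was at 0.19 ± 0.07 and TRIM41 at 0.17 ± 0.05, and both calls were lost without any 1 of several libraries, for TRIM47 attached GFI1 replicates 2 and 3 or any floating GFI1 replicate (adjusted p = 0.0510 to 0.166) and for TRIM41 attached GFI1 replicates 1 and 2 or floating GFI1 replicates 1 and 3 (adjusted p = 0.0550 to 0.145). The TRIM47 call was lost as well with DESeq2 (0.0792), no low-count filter (0.0739) and a fit of only the groups compared (0.0827), all adjusted p.

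**Figure D4:**
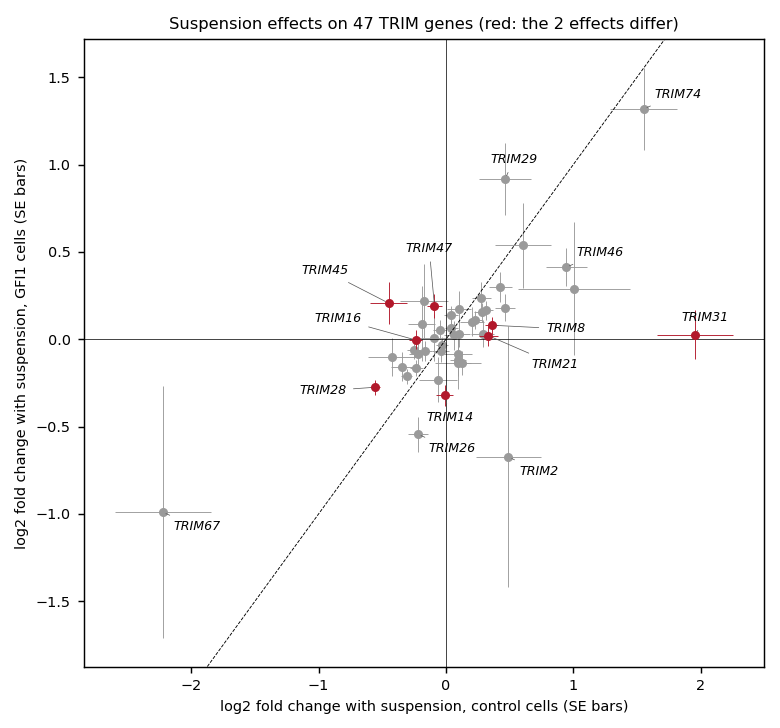
Suspension effects on the 47 tested TRIM genes as log2 fold changes of floating over attached cells, in control cells (horizontal axis) and in GFI1 cells (vertical axis), with bars of 1 SE. The dashed line marks equal effects and red points are the 8 genes whose 2 effects differed by the interaction test, with TRIM31 farthest from the line.

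Whether suspension acted differently in GFI1 and control cells was tested as an interaction, which is also the test of whether the GFI1 effect differed between attached and floating cells. It was called for 8 of the 47 members, 4 positive and 4 negative, beside 10.8% of all genes tested (4.76% positive, 6.01% negative), and 1 of the 8 was at least 2-fold, beside 1.35%. TRIM31 had the largest difference, at -1.93 ± 0.33 (edgeR, adjusted p = 0.000108), since it rose with suspension in control cells and was at 0.02 ± 0.14 in GFI1 cells. TRIM28 had 0.28 ± 0.06 (edgeR, adjusted p = 0.00207), its fall being smaller in GFI1 cells. TRIM8, which modulates NF-κB and cytokine signalling, had -0.28 ± 0.07 (edgeR, adjusted p = 0.00863), with 56.99, 55.7 and 56.8 CPM in attached controls, 73.9, 67.8 and 75.7 in floating controls, 87.04, 88.9 and 83.2 in attached GFI1 cells and 90.7, 95.1 and 88.3 in floating GFI1 cells. These 3 calls held under every alternative that tested them. The setting of at least 10 counts in every library did not test TRIM31.

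The other 5 calls were weaker. TRIM45 had 0.66 ± 0.19, with 5.72, 6.03 and 4.82 CPM in attached controls, 3.67, 3.55 and 4.87 in floating controls, 7.49, 7.15 and 7.26 in attached GFI1 cells and 8.11, 8.60 and 8.56 in floating GFI1 cells, so that the GFI1 libraries were above the controls by more in suspension. TRIM14 had -0.31 ± 0.09 and TRIM21 -0.31 ± 0.09, the GFI1 effect of both being smaller in suspension. TRIM47 had 0.28 ± 0.09 and TRIM16 0.23 ± 0.08. The call of TRIM45 was lost without attached control replicates 1 or 2 or floating control replicates 1 or 2 (edgeR, adjusted p of up to 0.0790) and that of TRIM14 without attached GFI1 replicate 2, attached control replicate 2, floating GFI1 replicate 1 or floating control replicates 2 or 3 (edgeR, adjusted p = 0.0563 to 0.0887). Those of TRIM21, TRIM16 and TRIM47 were lost in 8, 10 and 11 of the 12 fits that leave out 1 library, at adjusted p of up to 0.0968, 0.151 and 0.134. The TRIM47 call was also lost with DESeq2 (0.0972), RLE size factors (0.0594), library size alone (0.0655), no low-count filter (0.0696) and a replicate block (0.0542). That of TRIM16 was lost with DESeq2 (0.0800), RLE size factors (0.0706) and library size alone (0.0712), and that of TRIM21 with no low-count filter (0.109), all adjusted p. For the other 7 interferon-responsive members tested the interaction was not called. Over the 9 its median was -0.18. The 43 interferon response genes outside the family had 0 positive and 11 negative calls, beside 4.76% and 6.01% of all genes, with a median of -0.31.

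**Figure D5:**
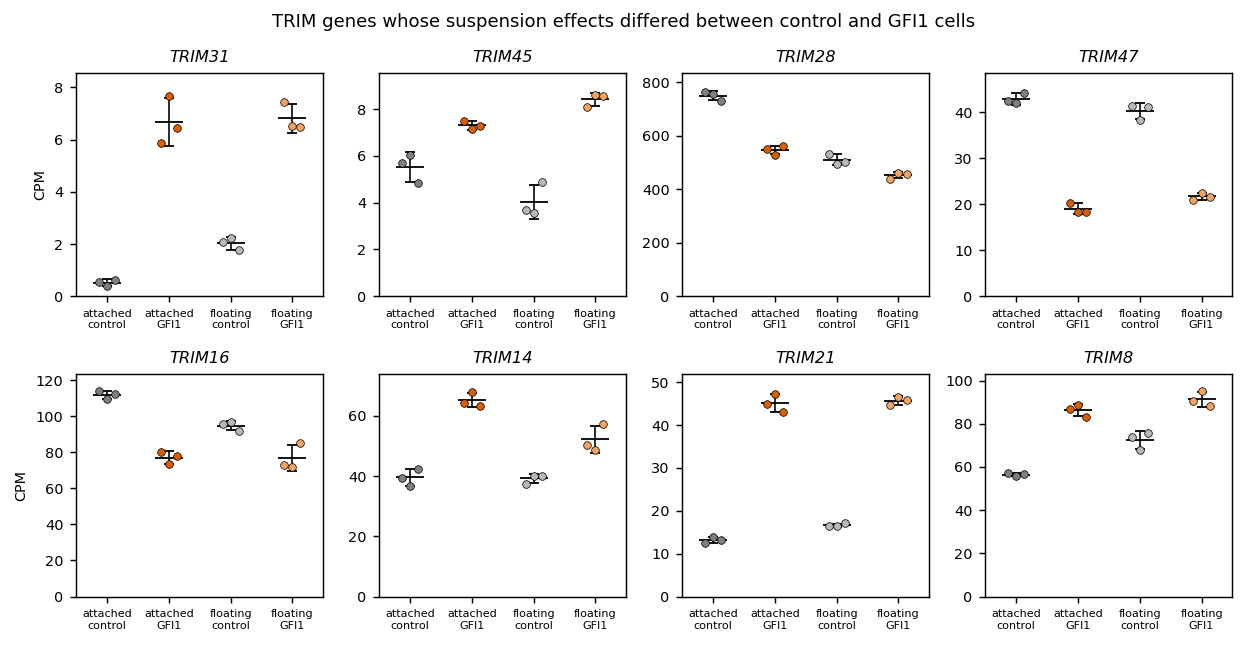
CPM (vertical axis, from 0) of the 8 TRIM genes whose suspension effect differed between control and GFI1 cells, in each of the 12 libraries, with the mean (long bar) and SD (whiskers) of each group. TRIM31 rises from attached to floating control cells and is level between the GFI1 groups, and TRIM28 falls by more in control than in GFI1 cells.

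The 19 members that did not reach the count filter are near or at the limit of these libraries. TRIM42, TRIM51, TRIM58, TRIM60, TRIM63, TRIM64 and TRIM77 had 0 counts in every library. By counting error alone, 0 counts in a single library allow an expected count of up to about 3. The limit per library is lower where all 12 libraries have 0. Of the 12 with at least 1 count, TRIM55, a muscle COS-box member, had 2 to 12 counts, TRIM15 had 0 to 15, TRIM10 0 to 6, TRIM34 0 to 5 and TRIM72, the muscle membrane repair factor, 0 to 3. TRIM40, TRIM43 and TRIM50 had 0 to 2 counts, and TRIM48, TRIM49, TRIM61 and TRIM71 had 0 or 1. TRIM43, TRIM48, TRIM49, TRIM51, TRIM64 and TRIM77 belong to clusters of near-identical copies, where reads that fit several copies may not be counted.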

How the data were processed

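RNA was poly(A) selected, fragmented and sequenced by the authors, and raw read counts per gene were deposited for 12 libraries with gene coordinates and lengths. The study describes alignment to GRCh38 with Hisat2 and counting with featureCounts, while the submitters' processing notes name Bowtie2 and HTSeq with hg38. The annotation release and strand setting are not given in the sources used here. Multi-mapping and strand choices can lower or mix counts of copies and overlapping genes.

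Genes were kept by edgeR's filterByExpr (minimum count 10, minimum total 15), scaled by TMM and fitted with 4 group means over all 12 libraries in edgeR 4.0.16 (R 4.3.3) by the quasi-likelihood F test. The 5 contrasts were tested with Benjamini-Hochberg adjustment over 17829 genes at 0.05, with no fold threshold as in the study. Standard errors are those of the fitted coefficients. CPM use TMM-scaled library sizes. Totals of 17014188 to 20748677 counts limit precision for genes under about 10 counts. The fit was tested on simulated counts. DESeq2 1.42.0, other scalings and filters, a replicate block and leaving out each library were alternatives.

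Named were GFI1, all tested interferon-responsive and TIF1 members, up to 5 highest and 5 lowest called members per contrast with mean log2 CPM of at least 1, members under the filter by count range, and the gene with the lowest adjusted p per direction in other lists. Others were named after their values were seen. The members and lists were chosen with earlier results of these data known.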

Additional observations from a re-analysis of the deposited data

Results flagged for a closer look

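The suspension effects of GFI1 and control cells differed by the interaction test for 8 members, and these differences are log2 values of the effect in GFI1 cells minus that in control cells. The difference was -1.93 for TRIM31, whose SE was 0.33 and whose control libraries before suspension held 7 to 11 counts. It was 0.28 for TRIM28 and -0.28 for TRIM8, with SEs of 0.06 and 0.07, and these 3 were called in every alternative that tested them. It was 0.66 for TRIM45, -0.31 for TRIM14, -0.31 for TRIM21, 0.28 for TRIM47 and 0.23 for TRIM16, and each of these 5 calls was lost without at least 4 of the 12 libraries taken singly.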

How the results depend on the processing

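Over the 5 comparisons 118 member results were called, and 89 of these were called under every setting that tested them, while none of the 118 changed direction. The other 29 lost their call in at least 1 setting, 13 of them only where 1 library was left out, and the cause was not tested. DESeq2 lost 10 of the calls, scaling by library size alone 9, no low-count filter 7, RLE size factors 4, and a fit of only the groups compared and a replicate block 3 each. All 9 interferon-responsive members kept both GFI1 calls in every setting. Requiring a 2-fold change as well left 11, 11, 3, 1 and 1 members for GFI1 in attached cells, GFI1 in floating cells, suspension in control cells, suspension in GFI1 cells and the interaction. With scaling by library size alone the GFI1 medians of the interferon-responsive members were 0.86 in attached and 0.88 in floating cells, and those of the other members 0.15 and 0.17, beside a median of 0.14 over all genes. Without a low-count filter, which adds TRIM34, the floating GFI1 median of the interferon-responsive members was 0.58 and their interaction median -0.086, and the median of the other members for suspension in GFI1 cells was 0.015. A wider list with TRIM6, TRIM31, TRIM35 and TRIM58 gave a floating GFI1 median of 0.58 and an interaction median of -0.10.

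Leaving out 1 library at a time gave 34 to 37, 33 to 38, 20 to 25, 9 to 13 and 3 to 8 called members in the same order of comparisons. The interaction count was lowest without floating control replicate 2 (3) and was 4 or 5 without attached control replicates 1, 2 or 3, floating control replicates 1 or 3 or floating GFI1 replicate 1. The interferon-responsive median for suspension in GFI1 cells ran from -0.17 (without floating GFI1 replicate 1) to -0.095, and that of the interaction from -0.26 (without attached control replicate 1) to -0.078 (without floating control replicate 2). Libraries with the same replicate number correlated at -0.031 to 0.031 in their deviations, and those with different numbers at -0.037 to 0.030. No shared deviation by replicate number was seen, but correlations this near 0 cannot tell whether the libraries were paired. With the number as a replicate block, 36, 36, 24, 12 and 7 members were called.

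Directions that changed belonged to uncalled values near 0. TRIM14 for suspension in control cells was 0.0032 with at least 10 counts required in every library, 0.011 with library size alone and -0.063 to 0.040 without single libraries. For suspension in GFI1 cells, TRIM16 was 0.0014 with at least 10 counts in every library, 0.0034 with no filter and -0.086 to 0.027 without single libraries, TRIM21 was -0.011 to 0.061 and TRIM31 was -0.055 to 0.15. For GFI1, TRIM29 in floating cells was -0.034 to 0.098, TRIM33 in attached cells -0.023 to 0.099, TRIM59 in attached cells -0.030 to 0.12, and TRIM65 in attached cells 0.082 with library size alone. Values of genes under about 10 counts in a library rest on few reads, and their errors are wide.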

Other observations

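Genes that work with TRIM proteins were read from 3 further lists, each described by its counts. Of 12 E2 enzymes that hand ubiquitin to TRIM ligases, 2 rose and 5 fell in attached GFI1 cells and 1 rose and 5 fell in floating GFI1 cells, beside 62.3% and 60.4% of all genes called in the 2 states, with medians of -0.024 and -0.0026 on the log2 scale. UBE2E1 fell by 0.52 and 0.62, UBE2D1 by 0.50 and 0.52, and UBE2N, the enzyme that builds lysine-63 chains, by 0.40 and 0.31, while UBE2W, which marks protein amino termini, rose by 0.42 and 0.31. Of 11 partners in sensor signalling, 6 rose and 4 fell in attached cells and 6 rose and 3 fell in floating cells, beside the same shares of all genes, 62.3% and 60.4%. The RNA sensors IFIH1 (3.61 and 3.09) and DDX58 (2.09 and 2.01), both also in the list of interferon response genes outside the family, rose, as did TMEM173, which encodes STING (1.03 and 0.78). The adaptor MAVS fell by 0.32 and 0.30 and the DNA sensor CGAS by 0.95 and 0.90.

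Of 5 partners of TRIM28 in repression, 2 rose and 3 fell in attached GFI1 cells and 1 rose and 3 fell in floating GFI1 cells, again beside 62.3% and 60.4% of all genes. CHD3, a nucleosome remodeller, fell by 1.01 and 0.78, and the HP1 genes CBX1 and CBX3 fell by 0.38 and 0.33 in attached cells, while the third HP1 gene, CBX5, rose by 0.10 and 0.23. SETDB1, the histone H3 lysine-9 methyltransferase that TRIM28 recruits, rose by 0.17 in attached cells and was at 0.07 in floating cells (edgeR, adjusted p = 0.359).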
